A study of Mus musculus with 6 samples.

Results

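The interferon regulatory factors Irf1, Irf5, Irf7, Irf8 and Irf9, the signal transducers Stat2 and Stat3, and the feedback inhibitors Socs1 and Socs3 were compared between M2c macrophages lacking the soluble epoxide hydrolase (sEH) and wild-type M2c macrophages. These 9 genes were taken by symbol from a count table of 19309 genes, and each matched exactly 1 row. Macrophages were grown from bone marrow monocytes of 3 sEH-/- and 3 wild-type mice aged 8 to 10 weeks, and 1 RNA library was sequenced per mouse. Over 7 days of culture both genotypes received GM-CSF together with M-CSF, at 15 ng/mL of either, before IFN-γ at 1 ng/mL plus LPS at 10 ng/mL brought them to the M1 state, and they were then repolarized with TGF-β1 (10 ng/mL), so that cells without these stimuli were not part of the comparison. The M1 step lasted 24 h in the sample labels and 12 h in the methods, and TGF-β1 was present for 48 h in the labels and for 24 or 48 h in the methods. The sEH-/- mice carried a constitutive, global deletion of Ephx2, so that progenitors and every other cell also lacked the enzyme before culture, and the methods describe the animals as strain-matched littermates.

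IRF and STAT proteins carry cytokine and pattern receptor signals to the nucleus. Binding of IFN-γ to its receptor activates the kinases Jak1 and Jak2 and leads to binding of GAS elements in genes such as Irf1, whereas type I interferons yield the complex ISGF3, which contains Stat2 and Irf9 and binds ISRE elements in antiviral genes and in Irf7. Stat3 acts downstream of the receptors for interleukins 6 and 10, and Socs1 and Socs3 are induced by these pathways and inhibit the receptors and kinases that induced them. Irf8 is needed for the development of monocytes and macrophages, and Irf5 acts downstream of Toll-like receptors in the induction of inflammatory cytokines.

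Library totals lay between 4400197 and 6096440 counts. Ephx2, the deleted gene, had 4, 2 and 1 counts in the sEH-/- and 26, 49 and 57 counts in the wild-type libraries. All 12 macrophage markers of a fixed list were measured in every library at a summed level of 2652 to 3305 CPM in sEH-/- and 2358 to 3002 CPM in wild-type libraries (CPM: counts per 1000000 counts of the library, with TMM normalization). The 4 plasmacytoid cell markers analysed summed to 216 to 259 and 202 to 235 CPM, almost all of it from Bst2 and Tcf4, which other cells also express. Dendritic cell markers, of interest because that lineage also depends on Irf8, summed to 28.3 to 59.0 and 42.4 to 60.1 CPM. Over all libraries together Clec9a had 946 counts, Zbtb46 278 and Ccr7 135, whereas Cd209a had 0 counts in every library. Neutrophil markers reached 284 to 359 and 265 to 317 CPM, of which Mmp8 made up most and S100a9 gave at most 3 counts. Stromal markers summed to 10.6 to 20.5 and 6.58 to 60.9 CPM, and the single lymphocyte marker analysed, Cd4, had 16.4 to 35.9 and 20.4 to 30.6 CPM. The part of these cells in the values below was not tested, and in such bulk RNA fewer cells of a type cannot be told apart from less RNA per cell.

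Promoters of the regulators were searched for the elements through which the same pathway acts on them, since Irf1, Socs1 and Socs3 are well-known targets of STAT and IRF proteins. Windows of 300 bases, from 250 bases before to 50 bases after the RefSeq start (GRCm38.p6), were available for all 9 genes, with 12 windows in total because Irf1, Irf8 and Irf9 have a pair of starts each. GAS was searched as TTCNNNGAA, which reads the same on both strands, and the ISRE core as GAAANNGAAA on both strands. Of all 32851 promoter windows of this length, 8.3% held a GAS match and 3.44% an ISRE core match. GAS matches were found in Irf1, Irf8 and Socs3 and ISRE core matches in Stat2 and Socs1, that is in 5 of the 9 regulators. These are matches of letters only, and binding of STAT or IRF proteins to them was not tested. The shares above are per window and per motif, so they give no direct background for a count of genes with either motif. The stretches around the matches are shown with the matches in capitals and the sequence written 5′ to 3′ on the strand of the gene.
Irf1 (chr11:53769904-53769952, plus strand): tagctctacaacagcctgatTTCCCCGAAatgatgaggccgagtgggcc
Irf8 (chr8:120736167-120736233, plus strand): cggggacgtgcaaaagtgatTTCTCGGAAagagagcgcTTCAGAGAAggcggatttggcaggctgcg
Socs3 (chr11:117969492-117969540, minus strand): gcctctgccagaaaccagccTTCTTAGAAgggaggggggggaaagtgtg
Stat2 (chr10:128270256-128270305, plus strand): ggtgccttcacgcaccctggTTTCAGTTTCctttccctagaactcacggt
Socs1 (chr16:10785584-10785639, minus strand): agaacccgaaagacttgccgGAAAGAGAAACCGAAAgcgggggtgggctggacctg

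The Irf1 match began 90 bases before the start, that of Socs3 154 bases before and the pair in Irf8 171 and 153 bases before it. In Stat2 the ISRE core lay on the opposite strand, 222 to 213 bases before the start. The matches in Socs1 overlapped each other and began 83 and 77 bases before the start. No match lay in the windows of Irf5, Irf7, Irf9 and Stat3, which says only that these letters do not occur there.

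None of the 9 regulators passed the study's criteria for differential expression, a difference of more than 1.5-fold in either direction together with a p-value under 0.05 after Benjamini-Hochberg adjustment, in edgeR's quasi-likelihood test, against 2.61% of the 13785 genes tested. By the adjusted p alone the count was also 0, against 4.01% of all tested genes and 2.39% in the higher direction. By both criteria together DESeq2 and limma-voom also called 0 of the 9, although the DESeq2 adjusted p of Stat2 alone was 0.0015. All 9 passed the filter on low counts, with at least 166 counts in every library. Stat2 and Socs3 came closest, with adjusted p-values just above the threshold, and were the 2 regulators with an unadjusted p below 0.05, a level reached by 23.4% of all tested genes. The same 2 were those in which the genotypes did not overlap, both higher in sEH-/- cells, which held for 26.3% of all tested genes in either direction and for 11.8% in the higher direction. Of the 9 log2 fold changes (sEH-/- over wild-type) 7 were above 0, compared with 49.8% of all tested genes, and their median was 0.11 against -0.00085 over all tested genes. Of the macrophage markers 12 of 12 were above 0, with a median of 0.21 and 0 called in edgeR, and the 3 tested dendritic cell markers were below 0, with a median of -0.31. The part of these marker differences in the values of the regulators was not tested.

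**Figure D1:**
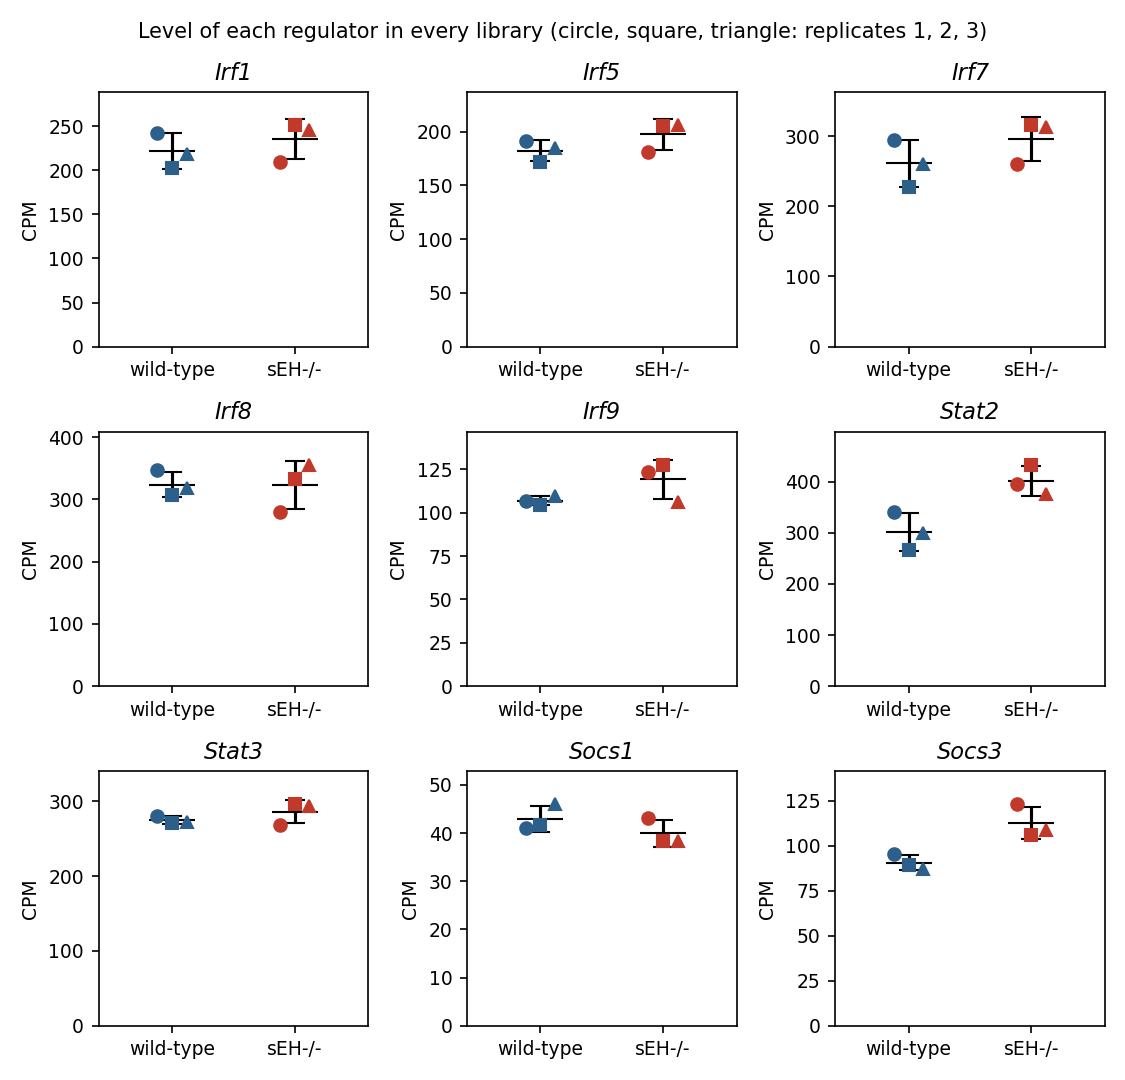
Level of each of the 9 regulators in CPM (vertical axes, from 0) in the 3 wild-type (blue) and 3 sEH-/- (red) libraries, with circles, squares and triangles for replicates 1, 2 and 3 and black bars for the mean and SD (n = 3). The genotypes separate for Stat2 and Socs3 and overlap for the other 7 regulators.

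Stat2, the partner of Irf9 in the type I interferon response, had the largest difference among the 9. Its level was 395, 433 and 376 CPM in the sEH-/- libraries and 340, 266 and 299 CPM in the wild-type libraries. Every sEH-/- library was therefore above every wild-type library, although the lowest sEH-/- and the highest wild-type value lay close together. The means were 401 ± 29.1 and 302 ± 37.0 CPM (SD, n = 3 each), and on the log2 scale the fold change was 0.41 (SE 0.10, 95% interval 0.19 to 0.64, edgeR adjusted p = 0.051). Stat2 (ENSMUSG00000040033, mm10 chromosome 10, 128270559 to 128292849, plus strand) ranked 566 among the 13785 tested genes by p. The adjusted p depended on the method, at 0.0015 with DESeq2 and 0.053 with limma-voom, and it was below 0.05 in 7 of the 14 refits with another method, filter or set of libraries. Without wild-type replicate 2 it was 0.24, and without wild-type replicate 1 it was 0.019. The log2 fold change stayed between 0.33 and 0.51 in these refits, under the fold threshold in each.

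Stat3, which carries the signals of interleukins 6 and 10, was measured at 268, 296 and 294 CPM in sEH-/- and at 281, 271 and 272 CPM in wild-type cells. Its libraries overlapped, with sEH-/- replicate 1 the lowest of the 6. The means of 286 ± 15.4 and 275 ± 5.43 CPM (SD, n = 3 each) gave a log2 fold change of 0.06 (SE 0.07, 95% interval -0.10 to 0.22, adjusted p = 0.68 from edgeR), so that a difference of more than 0.22 in either direction lay outside the interval. Stat3 (ENSMUSG00000004040) lies on the minus strand of chromosome 11, from 100885098 to 100939540.

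Irf9, the DNA-binding subunit of ISGF3, had 123, 128 and 106 CPM in the sEH-/- libraries and 107, 104 and 110 CPM in the wild-type libraries. The wild-type libraries were nearly identical, and sEH-/- replicate 3 fell among them while the other two sEH-/- libraries lay above. The log2 fold change was 0.16 (SE 0.08, 95% interval -0.018 to 0.34, adjusted p = 0.27 from edgeR). Irf9 (ENSMUSG00000002325) lies on the plus strand of chromosome 14, from 55603571 to 55610030, on the same chromosome as Ephx2.

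Irf7, itself an interferon-induced gene and the main amplifier of type I interferon production, had 260, 315 and 313 CPM in sEH-/- and 294, 228 and 261 CPM in wild-type cells. Replicate 1 of the sEH-/- group lay below the wild-type mean of 261 CPM and the other two sEH-/- libraries above every wild-type library. The log2 fold change of 0.18 (SE 0.11, 95% interval -0.060 to 0.43) was not past the threshold (adjusted p = 0.35 from edgeR). Irf7 (ENSMUSG00000025498) lies on the minus strand of chromosome 7, from 141262706 to 141266481.

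Irf1, the factor induced by IFN-γ through its GAS element, had 209, 251 and 246 CPM in sEH-/- and 243, 202 and 219 CPM in wild-type libraries. Irf5 had 181, 205 and 206 CPM in sEH-/- and 191, 172 and 184 CPM in wild-type libraries. For both genes sEH-/- replicate 1 sat within the wild-type range, as it did for Irf7. The log2 fold changes were 0.09 (SE 0.09, 95% interval -0.12 to 0.30, adjusted p = 0.62) for Irf1 and 0.11 (SE 0.08, 95% interval -0.060 to 0.29, adjusted p = 0.42 from edgeR) for Irf5. Irf1 (ENSMUSG00000018899) is on the plus strand of chromosome 11, from 53770014 to 53778374, and Irf5 (ENSMUSG00000029771) on the plus strand of chromosome 6, from 29526625 to 29541871.

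Irf8, the lineage factor of monocytes, had 280, 332 and 356 CPM in the sEH-/- libraries and 347, 306 and 318 CPM in the wild-type libraries. The sEH-/- libraries included both the lowest and the highest of the 6 values. Its means were 323 ± 38.8 and 324 ± 20.7 CPM (SD, n = 3 each), and the log2 fold change was -0.0063 (SE 0.10, 95% interval -0.23 to 0.21, adjusted p = 0.98 from edgeR), with a sign that turned in 4 of 16 alternatives. Irf8 (ENSMUSG00000041515) lies on the plus strand of chromosome 8, from 120736358 to 120756694.

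Socs3, which binds the shared receptor chain of the interleukin 6 family and restrains Stat3, had 123, 106 and 109 CPM in sEH-/- and 95.5, 89.1 and 87.3 CPM in wild-type libraries. All sEH-/- libraries were above all wild-type libraries, with sEH-/- replicate 1 the highest. The means were 113 ± 9.14 and 90.6 ± 4.28 CPM (SD, n = 3 each), and the log2 fold change was 0.32 (SE 0.08, 95% interval 0.14 to 0.50, adjusted p = 0.053 from edgeR). Its rank by p was 616 of the 13785 tested genes. The adjusted p was 0.060 with DESeq2 and lay between 0.049 and 0.22 over 14 refits, 4 of them below 0.05, with the highest value without wild-type replicate 2. Socs3 (ENSMUSG00000053113) lies on the minus strand of chromosome 11, from 117966079 to 117970047.

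Socs1, which inhibits Jak1, Jak2 and the IFN-γ receptor, had 43.2, 38.3 and 38.4 CPM in sEH-/- and 41.0, 41.6 and 46.0 CPM in wild-type libraries. The libraries overlapped and the log2 fold change was -0.10 (SE 0.10, 95% interval -0.32 to 0.12, adjusted p = 0.60 from edgeR). It was the least abundant of the 9 regulators. Socs1 (ENSMUSG00000038037) lies on the minus strand of chromosome 16, from 10782240 to 10785536.

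For 8 of the 9 regulators the 95% interval of the log2 fold change lay wholly within a 1.5-fold difference in either direction, the exception being the upper end for Stat2. A difference as large as the threshold was thus outside the interval of the fit for all but Stat2. These intervals cover the error of the fit only. Counts of Irf1, Irf5, Irf7 and Irf8 also rose less than in proportion to the library total, as given below. The part of this in their fold changes was not tested.

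**Figure D2:**
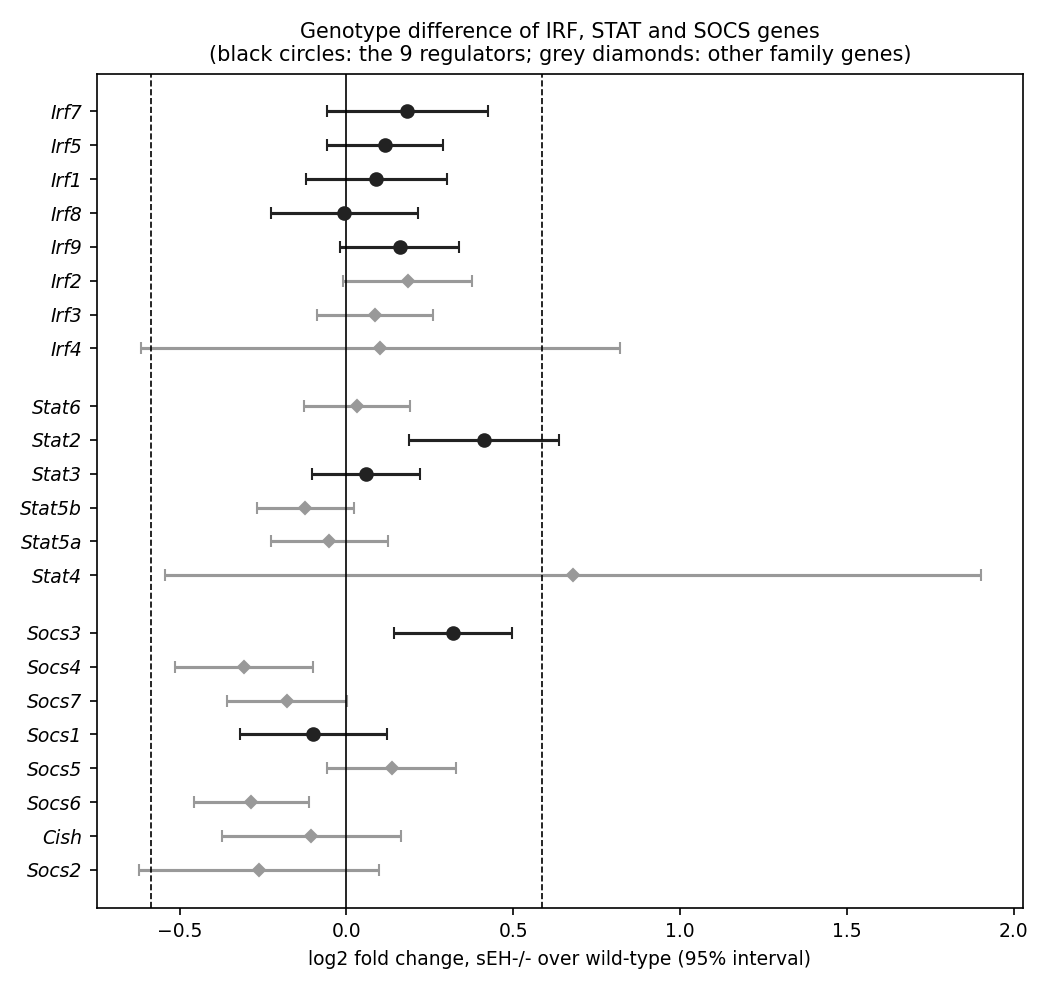
Log2 fold change (sEH-/- over wild-type, horizontal axis) with its 95% interval for the 9 regulators (black circles) and other tested IRF, STAT and SOCS genes (grey diamonds), from edgeR over 3 libraries per genotype, with dashed lines at a 1.5-fold difference. Only the intervals of Stat2 and Socs3 among the 9 exclude 0, and that of Stat2 (0.19 to 0.64) crosses the threshold.

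Ratios of counts within a library were formed for 3 pairs picked by role after the values had been seen. They need no scaling factor, but they can move with the library total where the counts of the paired genes follow it differently, as those of Stat2 and Irf9 did. There were 2.85, 2.77 and 2.83 Socs3 counts per Socs1 count in sEH-/- cells, whereas wild-type cells had 2.33, 2.14 and 1.90. The means were 2.82 ± 0.040 and 2.12 ± 0.21 (SD, n = 3 each), and the genotypes did not overlap. For Stat2 over Stat3 the sEH-/- ratios of 1.47, 1.46 and 1.28 compared with 1.21, 0.983 and 1.10 for wild-type cells, again without overlap. Stat2 over Irf9, the partners in ISGF3, gave 3.20, 3.39 and 3.53 against 3.19, 2.55 and 2.72 in replicate order, with the lowest sEH-/- and the highest wild-type library almost equal, and within each genotype it was lower in the libraries with more counts. Each of the 3 ratios gave p = 0.1 in a two-sided exact permutation test, the smallest p that 3 mice against 3 allow, and 0.1 after adjustment over the 3 pairs. The numerators, Stat2 and Socs3, were the regulators already without overlap between the genotypes when the pairs were picked. These p-values therefore add no support to the differences.

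Levels were compared between genes as CPM per kb of exonic length, which uses the union of all annotated exons and so understates genes with long, rarely used exons. Irf7, Irf5 and Stat6 had 0.2 to 0.4 counts per exonic base. At that density counts typically rose less than in proportion to the library total (median slope 0.748, explained below). The part of this in the order of levels was not tested. Within the IRF family Irf7 stood highest at 78.5 ± 8.29 in sEH-/- and 69.1 ± 8.82 CPM per kb in wild-type cells (SD, n = 3 each), followed by Irf5, Irf1 and Irf8. The per-library ranges of Irf7 (60.4 to 83.5), Irf5 (59.0 to 70.9) and Irf1 (50.8 to 63.1) overlapped, so that their order is not settled, and that of Irf8 (39.7 to 50.4) lay just below them. Irf9 followed at 19.4 to 23.7 CPM per kb, overlapping Irf2 and Irf3, and Irf4 had the lowest level of the family. In the STAT family Stat2 came next to Stat6, the mediator of interleukin 4 signals, with 67.7 ± 4.92 against 69.7 ± 1.53 CPM per kb in sEH-/- cells and 50.9 ± 6.24 against 68.3 ± 2.49 in wild-type cells. Stat3, at 28.2 to 31.1 CPM per kb, overlapped Stat5b. Of the SOCS genes Socs3 had the highest level, 39.0 ± 3.16 and 31.3 ± 1.48 CPM per kb, above every library of Socs4, and Socs1 followed Socs4 and Socs7 with 13.7 ± 0.97 and 14.7 ± 0.93, overlapping Socs7.

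**Figure D3:**
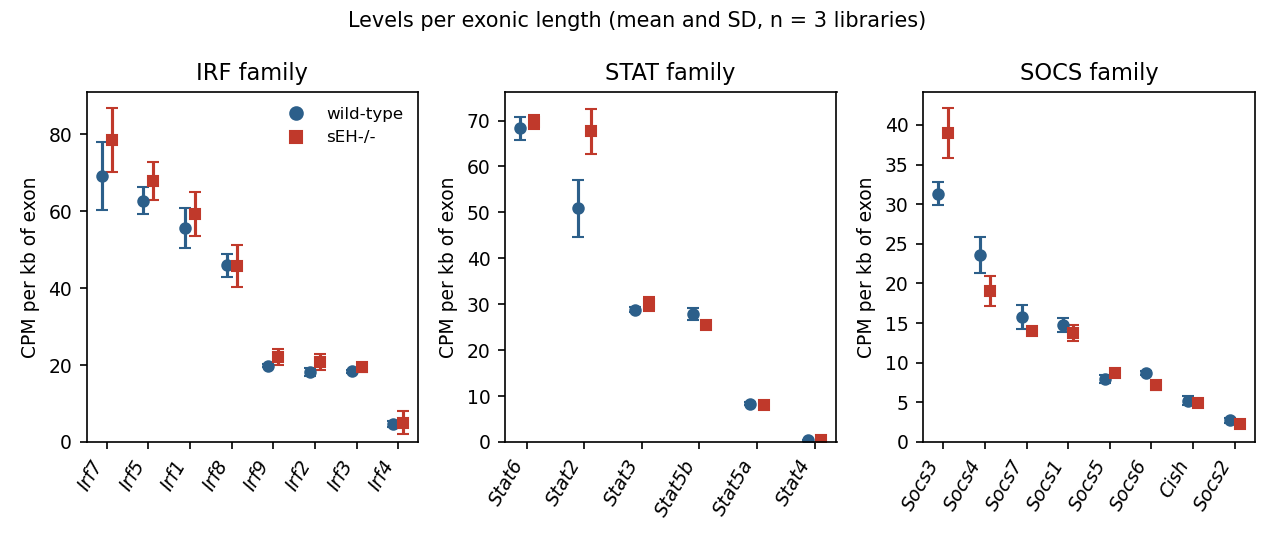
Level per exonic length (CPM per kb, vertical axes from 0) of IRF, STAT and SOCS genes in wild-type (blue circles) and sEH-/- (red squares) macrophages, as mean and SD of 3 libraries. Irf7, Irf5 and Irf1 lead the IRF family, Stat6 and Stat2 the STAT family, and Socs3 the SOCS family.

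Among the regulators Irf1, Irf5 and Irf7 varied together, with Pearson correlations of log2 CPM between 0.946 and 0.976 over the 6 libraries. These points share their libraries and depth, and the levels of the same genes also followed the library total, at r = -0.913 for Irf1, -0.86 for Irf5, -0.893 for Irf7 and -0.893 for Irf8. Between the smallest and the largest library the totals differed by a factor of 1.39 (1.385 unrounded), whereas Irf1 ranged from 1062 to 1248 counts, a factor of 1.18, and Irf7 from 1342 to 1566, a factor of 1.17. Socs1, by contrast, ranged from 166 to 257 counts, a factor of 1.55.

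The slope of log counts on log total, with genotype as a term, would be 1 if counts grew in proportion to the total. It was 0.304 for Irf7, 0.44 for Irf8, 0.476 for Irf1, 0.676 for Irf5 and 0.746 for Stat2, and lay between 0.867 and 1.37 for Stat3, Socs3, Irf9 and Socs1. The former 5 genes carried 0.238 to 0.382 counts per exonic base and the latter 4 between 0.0751 and 0.184. Over all tested genes with counts in every library the median slope was 0.748 at 0.2 to 0.4 counts per base (1292 genes), 1.03 at 0.1 to 0.2 and 1.36 at 0.01 to 0.05. Duplicate reads had been removed before counting, and the part of this step in the slopes was not tested. In a fit with log library total as covariate, the log2 fold changes were 0.39 for Stat2 (adjusted p = 0.062 from edgeR), 0.33 for Socs3 (0.074) and 0.12 for Irf7 (0.30).

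**Figure D4:**
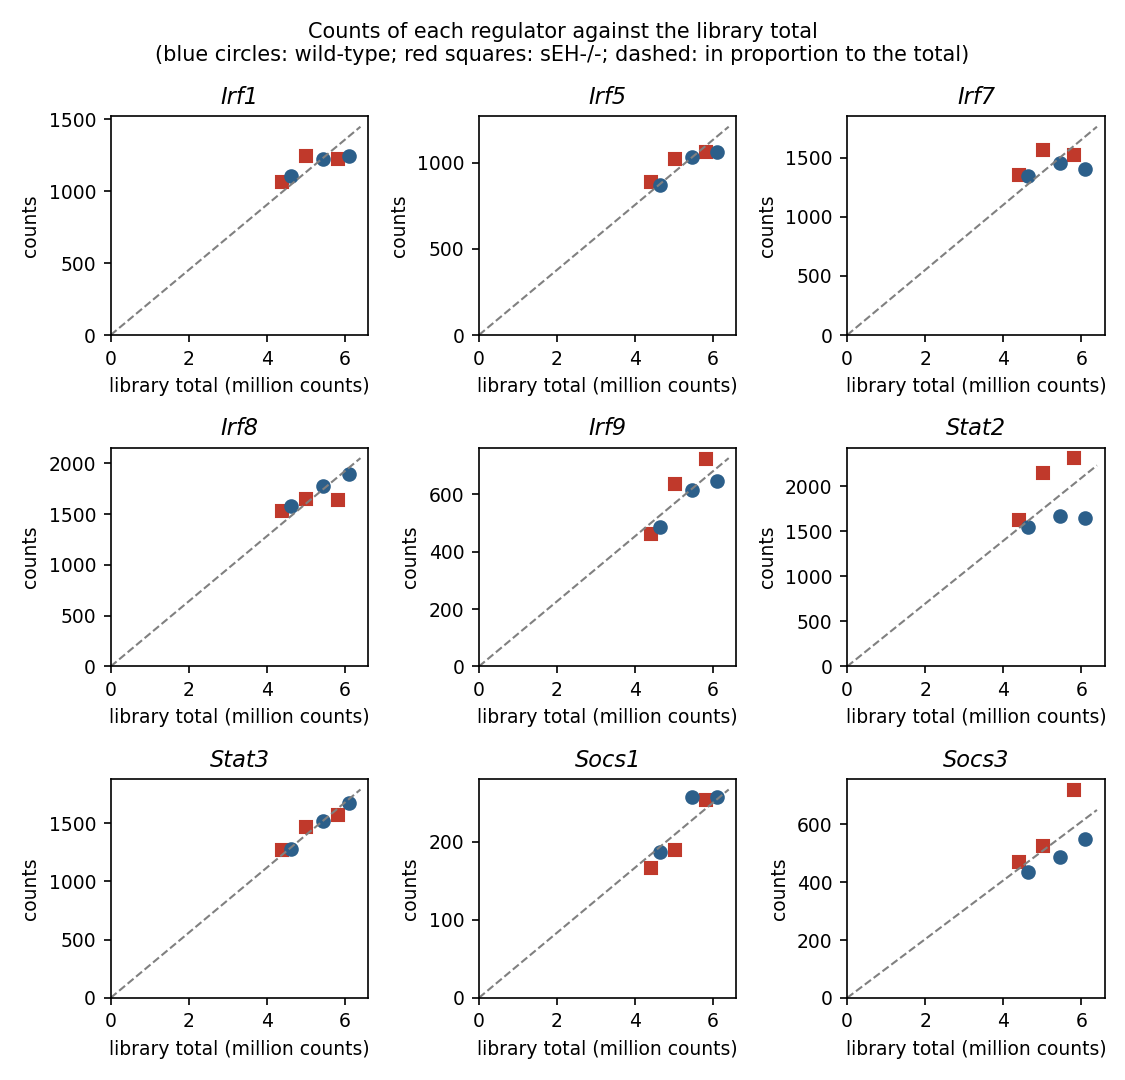
Counts of each regulator (vertical axes) against the library total (horizontal axes) for the 3 wild-type (blue circles) and 3 sEH-/- libraries (red squares), with a dashed line for counts in proportion to the total. Points of Irf1, Irf7 and Irf8 lie flatter than the line, and the sEH-/- points of Stat2 and Socs3 lie above the wild-type points at like totals.

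The patterns most like each regulator over the 6 libraries were taken among 10277 genes averaging 50 counts or more. They were Lgals9 and Psmb4 for Irf1, Neat1, Evi2a and Il2rg for Irf5, and Grk2 and Hmox2 for Irf7. Irf8 was most like Tle2, Eloa and Rpl41, and Irf9 most like Exosc10, B230307C23Rik and Ier3. For Stat2 these genes were Ikzf1, Kiz and Uba7, the activating enzyme for the ubiquitin-like protein Isg15, and for Stat3 they were Pltp and St3gal4. Socs1 was closest to Decr2, Mvd and Kbtbd2 and Socs3 to Tspyl3, Jmjd8 and Cdadc1. Pearson r lay between 0.9832 for Kbtbd2 and 0.9989 for Lgals9, which is a description of 6 points that share their libraries and were the best of many.

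The remaining genes of these families were not called either. The 3 other IRF genes tested had log2 fold changes between 0.09 and 0.18, among them Irf2, an antagonist of Irf1, at 0.18 (adjusted p = 0.24) and Irf3, the first responder to viral nucleic acid, at 0.09 (adjusted p = 0.56, all from edgeR). Of the 5 other STAT genes tested 0 were called, and Stat6 had a log2 fold change of 0.03 (adjusted p = 0.84). The 6 other SOCS genes had a median log2 fold change of -0.22, with 1 above and 5 below 0. Among them were Socs4 at -0.31 (adjusted p = 0.081) and Socs7 at -0.18 (adjusted p = 0.22). Named after their values were seen, Socs6 stood at -0.28 (adjusted p = 0.064) and Socs5, the one above 0, at 0.14 (adjusted p = 0.39, all from edgeR). In Socs4, Socs6 and Socs7 every sEH-/- library was below every wild-type library, and in Socs5 every one was above. Over all tested genes 26.3% separated in either direction.

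Upstream of the regulators, 0 of 4 JAK kinases and 0 of 17 tested receptor subunits passed both criteria in edgeR, with an unadjusted p below 0.05 for 3 and 6 of them, against 23.4% of all tested genes. DESeq2 called 0 and 2 of them, beside 472 of all 13785 genes. Jak1 had a log2 fold change of -0.13 (adjusted p = 0.38) and Jak2 of 0.24 (adjusted p = 0.081). Named after their values were seen, Jak3 had one of 0.32 and Tyk2 one of 0.24 (edgeR adjusted p = 0.11 for both). In 3 of the 4 kinases, all but Jak1, every sEH-/- library was above every wild-type library, against 11.8% of all tested genes. Csf2rb, a receptor chain for GM-CSF, which was in the medium, had a value of 0.05 and the related Csf2rb2 one of 0.14 (adjusted p = 0.82 and 0.43). Csf2ra, the other GM-CSF receptor chain, was named after its value was seen. It had a value of 0.27 (edgeR adjusted p = 0.090), with every sEH-/- library above every wild-type library. Of the 17 subunits 4 separated in this direction, against 11.8% of all tested genes. The median over the receptor subunits was 0.14. Others, named after their values were seen, differed more between the genotypes. Il10ra, a subunit of the interleukin 10 receptor, was past the adjusted p (0.049) but under the fold threshold, at 0.43. Il6ra, which binds interleukin 6, had a log2 fold change of 0.62 (adjusted p = 0.058) and Csf3r, the receptor for G-CSF, one of 0.84 (adjusted p = 0.069). Il6st, the signalling chain shared by the interleukin 6 family, had one of -0.39 (adjusted p = 0.064) and was lower in every sEH-/- than in every wild-type library. Of the ligands, Ifnb1 had 0 counts in all 6 libraries, where 3 counts, the limit that a count of 0 allows, would correspond to 0.486 to 0.694 CPM. Il10 had 2, 1 and 0 counts in sEH-/- and 0 counts in each wild-type library, and Il6 had 38, 6 and 4 counts in sEH-/- cells, whereas wild-type cells had 1, 4 and 1, so that its fold rested on few counts and largely on sEH-/- replicate 1. These 3 ligands were picked after their values had been seen. Lif, also named after its value was seen, went the other way, at -1.16 (SE 0.36, edgeR adjusted p = 0.088). It had 95, 24 and 34 counts in sEH-/- and 75, 181 and 112 counts in wild-type libraries. In CPM every sEH-/- library was below every wild-type library, although replicate 1 of both genotypes lay close together (16.2 and 16.5 CPM). Of the tested ligands 3 were above 0 and 2 below. Osm (log2 fold change -0.14, adjusted p = 0.72) and Ebi3 (0.29, adjusted p = 0.074) were the most abundant of the 5 ligands tested, none of which was called in edgeR. Of these ligands 3 had an unadjusted p below 0.05, against 23.4% of all tested genes. DESeq2 called 2 of them, beside 472 of all 13785 genes.

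Of the other negative regulators 0 of 17 were called in edgeR and with DESeq2. An unadjusted p below 0.05 was reached by 4, against 23.4% of all tested genes. Of the 17, 13 were above 0, against 49.8%, with a median log2 fold change of 0.08. Ptpn1, a phosphatase of Jak2 and Tyk2, had a log2 fold change of 0.19 (adjusted p = 0.37) and Ptpn11 one of 0.07 (adjusted p = 0.56). The 4 with an unadjusted p below 0.05, named after their values were seen, were Sh2b3 (0.39, adjusted p = 0.054), Trim21 (0.33, adjusted p = 0.077), Usp18 (0.31, adjusted p = 0.085) and Isg15 (0.30, adjusted p = 0.095), and in each of them every sEH-/- library was above every wild-type library. In this list 5 genes separated in that direction and 1 in the other, against 11.8% of all tested genes higher and 26.3% in either direction. Of 18 genes that activate IRF proteins 1 was called, against 2.61% of all tested genes. This was Ikbke, a kinase that phosphorylates Irf3 and Irf7, with 202, 256 and 215 CPM in sEH-/- and 170, 117 and 143 CPM in wild-type libraries, a log2 difference of 0.65 (SE 0.13, edgeR adjusted p = 0.030). The Ikbke call was lost with glmTreat, and also when replicate 2 of either genotype or replicate 3 of the wild type was left out. Tlr7 had a log2 fold change of 0.22 (adjusted p = 0.22). Ddx58, the cytosolic RNA sensor RIG-I, was past the adjusted p (0.033) but under the fold threshold, at 0.48. Among these 18 genes 13 were above 0 and 5 below, with a median log2 fold change of 0.17. The genotypes separated in 6 that were higher and 3 that were lower in sEH-/- cells, against 26.3% of all tested genes. Those lower, named after their values were seen, were Ticam1 (-0.26, edgeR adjusted p = 0.10), Slc15a4 (-0.23, 0.073) and Mavs (-0.18, 0.13).

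Genes downstream of the regulators were grouped by a factor known to act on them, which need not be their only or main driver. Of 27 tested ISGF3 targets 27 had a log2 fold change above 0, with a median of 0.34 beside 0.21 for the macrophage markers, 3 called higher and 0 lower, compared with 1.51% of all tested genes called higher. In 15 of the 27 the sEH-/- libraries lay wholly above the wild-type libraries, compared with 11.8% of all tested genes. The called genes were Cmpk2 (log2 fold change 0.97, SE 0.21, adjusted p = 0.035), Oas2 (0.99, SE 0.20, adjusted p = 0.030) and Ifit3b (1.39, SE 0.26, adjusted p = 0.025, all from edgeR), and the abundant Parp14 and Samhd1 had values of 0.34 (adjusted p = 0.097) and 0.10 (adjusted p = 0.59). Ifit3b is nearly identical in sequence to its paralogs, and reads mapping to several genes had been dropped, so that its value is uncertain. The count for these targets was 0 with the library total as a covariate, with glmTreat, and on leaving out replicate 2 of either genotype or replicate 3 of the wild type.

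The 31 tested targets of IFN-γ and Irf1 had a median log2 fold change of 0.06, with 1 called higher, against 1.51% of all tested genes, and 22 above 0, against 49.8%. The called gene was the chemokine Cxcl10, with 51.6, 40.3 and 9.95 CPM in sEH-/- and 4.61, 0.810 and 2.50 CPM in wild-type libraries (a log2 difference of 3.78, SE 0.62, with an edgeR adjusted p = 0.018). This call was lost with limma-voom, with glmTreat and without wild-type replicate 2 or wild-type replicate 3. The abundant Cd274, which encodes the ligand PD-L1, had a value of -0.06 (adjusted p = 0.77) and Nos2 one of -0.13 (adjusted p = 0.55). Of 23 tested Stat3 targets, 3 were called higher, against 1.51% of all tested genes, and the median was 0.14. They were haptoglobin, Hp (1.79, SE 0.21, adjusted p = 0.0058), lipocalin 2, Lcn2 (1.05, SE 0.16, adjusted p = 0.015) and Myc (1.44, SE 0.27, adjusted p = 0.027, all from edgeR), whereas the survival factor Mcl1 and Hif1a had values of 0.11 and 0.12 (adjusted p = 0.56 and 0.51). The 3 called genes are also induced by other factors. Of this list 2 genes were called without sEH-/- replicate 2, 1 without wild-type replicate 2, 0 without wild-type replicate 3 and 1 with glmTreat. Over all tested genes the median log2 fold change was -0.00085.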

How the data were processed

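RNA of 6 libraries of M2c macrophages was analysed, 1 per mouse. Before deposit, the authors used Trimmomatic for trimming and STAR for alignment to mm10 (Ensembl). Duplicates were taken out with Picard, reads of mitochondrial or ribosomal origin and those with several positions were discarded, and featureCounts gave exon counts by strand. The versions in the labels and in the methods differ, as do the library kits. The deposited values are raw counts per gene, without normalization.

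Tests used edgeR 4.0.16 under R 4.3.3 (glmQLFit and glmQLFTest with TMM factors, no covariates) for the 13785 genes with a mean above 5 counts. The SE was obtained from the log2 fold change and the F statistic, and 95% intervals use its degrees of freedom. Log2 CPM for correlations used a prior count of 2. DESeq2 1.42.0, limma 3.58.1 (voom), RLE factors, library totals without TMM factors, no filter, filterByExpr, no fold threshold, glmTreat, a replicate block, the log library total as a covariate and leaving out each library were alternatives. Exonic lengths came from GENCODE M21 (mm10), promoter sequences from RefSeq. The fits were tested on simulated data. Chi-square per degree of freedom between libraries of 1 genotype was 2.24 to 4.89, so none were duplicates.

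Genes named are the 9 regulators, Ephx2, the called genes of each list with up to 2 abundant others, the 3 genes most like each regulator, and some picked after their values were seen. Some genes that this rule names are not reported here. The regulators and lists were chosen with earlier results of these data known. Intervals for counts of 0 cover counting error only.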

Additional observations from a re-analysis of the deposited data

How the results depend on the processing

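No regulator was called under any of the 16 alternatives, DESeq2 and limma-voom included. The adjusted p alone was below 0.05 in 7 of 14 refits for Stat2 and in 4 for Socs3. Of 144 values, 140 kept their direction and stayed uncalled by both criteria together. The other 4 were those of Irf8, whose log2 fold change of -0.0063 turned to 0.0013 with DESeq2, 0.0012 with RLE factors, 0.09 (0.0882) without sEH-/- replicate 1 and 0.04 (0.0443) without wild-type replicate 1, all within its error, and its range with a library left out was -0.07 (-0.0721, without sEH-/- replicate 3) to 0.09. Over all genes, 360 were called, and 553 without a fold threshold, 10 with glmTreat, 234 with the replicate block, 171 with the library total as a covariate and 6 to 625 with a library left out (lowest without wild-type replicate 3, 25 without wild-type replicate 2). Of the genes of the pathway lists 8 were called, and 13 with DESeq2, 15 without a fold threshold, 1 with glmTreat and 0 to 14 with a library left out. Same-numbered libraries of both genotypes did not deviate together from their genotype means (r = -0.0818, -0.26 and -0.0367 for numbers 1, 2 and 3). With 3 libraries per genotype this cannot show whether the numbers pair the mice. With the replicate block the adjusted p was 0.11 for Stat2 and 0.09 (0.0901) for Socs3, and no regulator was called. The rank of each regulator per length within its family was the same with TPM-like scaling. Leaving out a library leaves one genotype with a pair of mice. The causes of these changes were not tested. With 3 mice per genotype, smaller differences than these intervals allow were not detectable.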
